A study of Mus musculus with 9 samples.

Results

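Follistatin and 9 genes of transforming growth factor beta (TGF-beta) superfamily ligands were followed in the ageing mouse seminal vesicle. They were chosen by name, but with earlier results of these data known. Tgfb1, Tgfb2 and Tgfb3 encode the TGF-betas, and Inhba and Inhbb the activin subunits. Bmp2, Bmp4, Bmp7 and Gdf10 encode the bone morphogenetic proteins (BMPs) examined, while Fst encodes follistatin. All 10 were found among the 53379 genes of the count table, and all 10 were among the 16067 genes with enough reads to be tested. Seminal vesicles of mice aged 3, 13 and 21 months were sequenced as bulk total RNA, with 3 libraries per age and 9 in all. The strain is not given in the sources used here, and nothing in the labels names a treatment or a genotype. The labels also do not say that replicates are separate animals, so p-values measure only the spread between these libraries, which may be technical. The question was how the seminal vesicle transcriptome differs with age.

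TGF-betas are secreted in a latent form, held in the matrix until they are activated, and signal through a pair of serine/threonine kinase receptors to SMAD2 and SMAD3. Activins, dimers of the inhibin beta subunits, use the same SMADs through their own receptors and are bound and neutralised by follistatin, whereas BMPs signal mainly through SMAD1, SMAD5 and SMAD9. In mice the seminal vesicle secretes TGF-beta into seminal fluid, and BMP4 and BMP7 restrain branching of the neighbouring prostate during development.

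The promoters of Tgfb1, Tgfb2 and Inhbb are shown because these ligands were, beside Bmp2, those whose 21-month libraries all lay above the 3-month libraries. Each line gives the 250 bases before the transcription start from RefSeq on GRCm38.p6, 5' to 3' on the gene's strand. Capitals mark the matches found on either strand to the GC box motif GGGCGG, to TATAAA, which is the core of the TATA box, to the CCAAT box, or to the SMAD-binding element CAGAC.
Tgfb1: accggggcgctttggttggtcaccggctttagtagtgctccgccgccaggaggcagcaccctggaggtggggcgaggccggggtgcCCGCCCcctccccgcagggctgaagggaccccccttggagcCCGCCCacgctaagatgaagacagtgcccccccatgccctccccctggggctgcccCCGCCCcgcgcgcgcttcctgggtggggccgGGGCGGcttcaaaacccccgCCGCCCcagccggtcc
Tgfb2: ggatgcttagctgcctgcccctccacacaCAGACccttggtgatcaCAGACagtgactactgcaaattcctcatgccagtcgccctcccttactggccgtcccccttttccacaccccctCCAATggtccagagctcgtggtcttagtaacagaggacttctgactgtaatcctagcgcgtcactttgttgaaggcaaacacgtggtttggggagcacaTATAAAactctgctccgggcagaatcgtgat
Inhbb: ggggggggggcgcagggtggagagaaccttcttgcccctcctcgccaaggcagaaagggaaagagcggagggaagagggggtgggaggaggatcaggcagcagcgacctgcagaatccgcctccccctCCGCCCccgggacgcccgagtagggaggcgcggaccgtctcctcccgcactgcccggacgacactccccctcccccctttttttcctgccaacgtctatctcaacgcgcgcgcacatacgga
The Tgfb1 window (chr7:25686752-25687001, plus strand) held 5 GC boxes and 21 CpG dinucleotides, with a GC content of 75.2%. The Inhbb window (chr1:119422249-119422498, minus strand) held 1 GC box, 21 CpG dinucleotides and 68.0% GC. The Tgfb2 window (chr1:186705990-186706239, minus strand) instead had a TATA box beginning 31 bases before the start, 1 CCAAT box, 2 CAGAC elements and 8 CpG dinucleotides, with 53.6% GC. Of 32536 RefSeq promoter windows of that length, 32.97% held a GC box, 12.3% a TATA box, 33.8% a CCAAT box and 42.2% a CAGAC element. The AP-1 site, searched as TGANTCA, the cAMP response element TGACGTCA and the SMAD palindrome GTCTAGAC, which occur in 6.73%, 1.56% and 0.169% of promoter windows, had no match in these 3 windows. Promoter windows were at hand for 6 of the 10 genes; Tgfb3, Bmp2, Bmp7 and Fst had no entry.

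Depth was similar across ages, with 16536160 to 24791943 counts per library. Marker transcripts of other tissues stood out in 2 of the 3 libraries at 21 months. A list of 9 prostate epithelial genes, 8 of them detected with at least 3 counts, summed to 16246 CPM (counts scaled by TMM, the trimmed mean of M values, to a library of 1000000) in 21-month replicate 1, against 0.138 to 1.12 CPM in the other 8 libraries. The prostate transglutaminase Tgm4 alone had 300932 counts there, and Msmb had 944 counts there and 0 in all others. A list of 9 fat cell genes, all detected, summed to 1971 CPM in 21-month replicate 2 and 255.6 CPM in replicate 1, against 18.7 to 43.3 CPM in the other 7 libraries, where Adipoq had 0 counts in 5. The list of 8 nerve and Schwann cell genes moved with the fat genes, at 41.0 and 11.5 CPM in replicates 2 and 1, against 3.17 to 5.27 CPM elsewhere. Seminal vesicle secretory genes, 9 of 9 detected in every library, made up 54.7 to 57.5% of counts at 3 months, 53.8 to 59.4% at 13 months and 21.4 to 53.5% at 21 months. The difference of each of the 10 genes at 21 against 3 months is therefore also given with replicate 3 as the only 21-month library. In that fit the spread comes from the 3- and 13-month libraries, whose variance is lent to the 1 library at 21 months, so that its adjusted p-values describe 1 library and are no replicated test of age. In bulk RNA, fewer cells of a type and less RNA per cell cannot be told apart.

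Per transcript length, Tgfb3 was by far the most abundant of the 10 transcripts. Its mean level was 15.3 RPKM (TMM-scaled CPM per kilobase of exons) over the 9 libraries, with a range of 7.95 to 21.7, and it stood at the 92.7 percentile of tested genes. Its lowest library lay above the highest library of the next gene, Bmp4 (mean 3.07, range 1.92 to 4.26 RPKM). Bmp7 followed at 2.22 (1.20 to 5.94), Gdf10 at 1.91 (1.31 to 3.07), Fst at 1.68 (0.778 to 2.69) and Tgfb2 at 1.48 RPKM (1.10 to 2.35). Each of these overlapped its neighbours in the order, and Fst exceeded Tgfb2 in only 5 of 9 libraries. Inhbb (0.742 RPKM, 0.311 to 1.57), Tgfb1 (0.451, 0.263 to 0.736), Bmp2 (0.341, 0.0486 to 0.564) and Inhba (0.278, 0.102 to 0.615) formed the low end, with Inhba at the 8.87 percentile. Ranges overlapped there too, although within libraries Tgfb2 exceeded Inhbb, and Inhbb exceeded Tgfb1, in 9 of 9. Tgfb3, Bmp4, Inhbb and Tgfb1 held ranks 1, 2, 7 and 8 at each age.

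**Figure D1:**
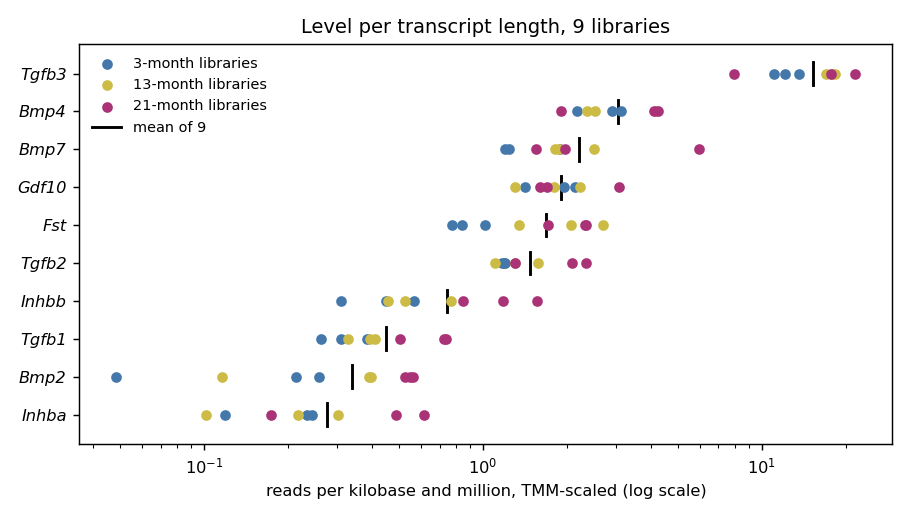
Level of each of the 10 genes per transcript length in TMM-scaled RPKM (log axis), 1 point per library coloured by age, with a bar at the mean of 9. Tgfb3 stands apart at a mean of 15.3, and the other 9 genes run in overlapping ranges down to Inhba at 0.278.

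Age differences leaned one way among the 10 genes, a list chosen with earlier results of these data known. At 21 against 3 months all 10 genes had a positive log2 fold change, with a median of 1.07 against 0.01 over all tested genes, of which 50.7% were positive. The test called 1 of the 10, Fst, where it called 2.02% of all genes in either direction (1.26% higher, 0.766% lower). An unadjusted p under 0.05 was found for 6 of 10 (24.4% of all genes), DESeq2 called 4 of 10 (9.35%) and limma-voom 0 of 10 (0.958%). The 3 libraries at 21 months lay wholly above the 3 libraries at 3 months for 5 of 10 genes (Tgfb1, Tgfb2, Inhbb, Bmp2 and Fst), against 14.8% of all genes (and 14.7% wholly below). At 13 against 3 months, 0 of 10 genes were called by edgeR where 0.454% of all genes were (0.0436% higher, 0.411% lower). There 1 of 10 had an unadjusted p under 0.05 (7.24% of all genes), DESeq2 called 1, Fst (1.31%), and limma-voom 0 (0.367%). The libraries of 13 months lay wholly higher for 2 genes, Tgfb3 and Fst, against 8.18% of all genes (and 9.33% lower). At 21 against 13 months, 0 of 10 were called by edgeR where 0.00622% of all genes were (0% lower). There 3 of 10 had an unadjusted p under 0.05 (15.7% of all genes), DESeq2 called 0 (2.66%) and limma-voom 0 (0.0187%). The older libraries lay wholly higher for 3 genes, Tgfb1, Inhbb and Bmp2, against 7.99% of all genes (and 8.25% lower). The 3 comparisons share libraries pairwise. When replicate 3 stood for 21 months by itself, 9 of the 10 fold changes at 21 against 3 months stayed positive, Gdf10 being at -0.11. The share of all genes that were positive in that fit is not given here. Some log2 fold changes shrank, such as Tgfb2 from 0.69 to 0.14, and others grew, such as Tgfb3 from 0.37 to 0.83. In that fit, whose older arm is 1 library, Tgfb3 was the only one of the 10 with an adjusted p under 0.05, against 0.345% of all genes.

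**Figure D2:**
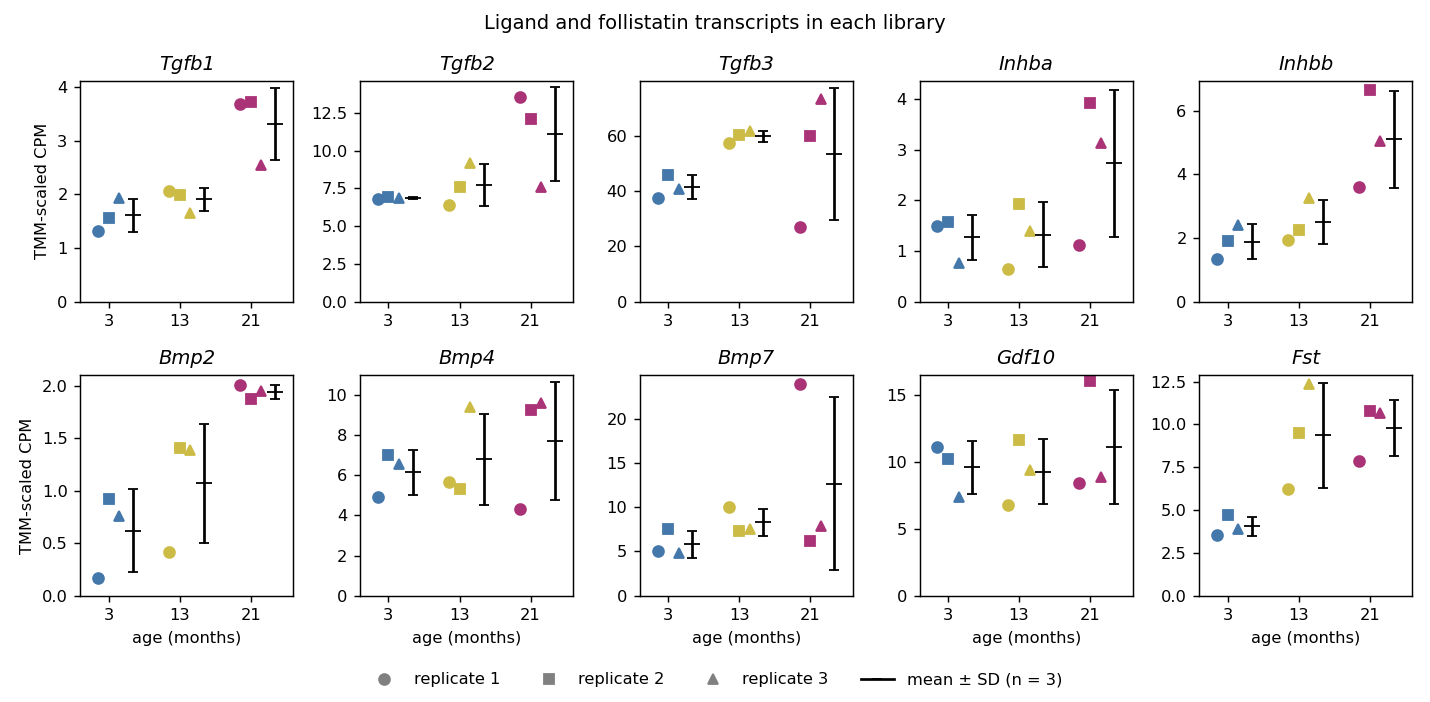
TMM-scaled CPM of each gene (one panel per gene, each with its own axis from 0) in the 3 libraries at each age in months, with the mean and SD; marker shapes stand for replicates 1 to 3. Fst stands higher at 13 and 21 months than at 3 months in every library, and Bmp7 has 1 far point, 21-month replicate 1, at 23.9.

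Scaling mattered for counts of calls at 21 months. The TMM factors, 0.815 to 1.64 across libraries, were largest where secretory transcripts took the smallest share. When counts were divided by library totals only, the all-gene median shifted on the log2 scale by 0.61 (21 against 3 months), 0.54 (21 against 13 months) and 0.06 (13 against 3 months). Under it 5695 genes were called at 21 against 3 months, 5597 higher and 98 lower, against 325 with TMM, 202 higher and 123 lower. Under library totals 9 of the 10 genes were called at 21 against 3 months, all but Gdf10, where 35.4% of all genes were. All changes are given relative to the TMM scale.

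Tgfb1 (ENSMUSG00000002603, GRCm38 chromosome 7, 25687002 to 25705077, plus strand) encodes the TGF-beta best known from immune regulation and wound repair. Its level was 1.32, 1.56 and 1.93 CPM at 3 months, 2.07, 1.98 and 1.66 CPM at 13 months, and 3.68, 3.71 and 2.54 CPM at 21 months (replicates 1 to 3, the order used throughout). The 21-month libraries all lay above the rest, whereas 3 and 13 months overlapped. These values rest on 22 to 103 counts per library. Tgfb1 averaged 3.31 ± 0.67 CPM at 21 months against 1.61 ± 0.31 CPM at 3 months (SD, n = 3 each), a log2 fold change of 1.05 ± 0.24 (SE) with an adjusted p of 0.0588 in edgeR's quasi-likelihood test with Benjamini-Hochberg adjustment, just outside the threshold of 0.05. DESeq2 gave 0.0127, library totals 0.0123 and the fit without 21-month replicate 3 0.0186, so that each of these called it. Of all genes, DESeq2 called 9.35% and library totals 35.4%. The fit without replicate 3 called 2349 of 16751, and its 21-month libraries are those with prostate and fat transcripts. With replicate 3 as the only 21-month library the log2 fold change was 0.67, adjusted p = 0.505. Beside it, 7 of 7 macrophage and monocyte markers were detected in every library and summed to 63.1 to 77.6 CPM in the youngest libraries, 65.6 to 95.9 CPM in those of 13 months and 120.9 to 234.9 CPM in the oldest. T cell markers, 7 in all, summed to 1.84 to 3.38 CPM, 4.34 to 10.9 CPM and 9.08 to 13.4 CPM in the same order of age. The part of these cells in the Tgfb1 difference was not tested.

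Tgfb2 (ENSMUSG00000039239, GRCm38 chromosome 1, 186622792 to 186705989, minus strand) encodes an isoform needed in many developing epithelial and mesenchymal tissues. It had 6.80, 6.95 and 6.90 CPM at 3 months, 6.39, 7.56 and 9.18 CPM at 13 months, and 13.6, 12.1 and 7.58 CPM at 21 months. The 3-month libraries were nearly equal, all 21-month libraries lay above them, and the high 21-month values were those of replicates 1 and 2, the libraries with prostate and fat transcripts. The log2 fold change of 21 over 3 months was 0.69 ± 0.22 (SE; edgeR adjusted p = 0.106). It was 0.14 with replicate 3 as the only 21-month library. Library totals, which called 35.4% of all genes, called Tgfb2. The fit without 21-month replicate 3, which keeps only replicates 1 and 2 at that age, called 2349 of 16751 genes, Tgfb2 among them.

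Tgfb3 (ENSMUSG00000021253, GRCm38 chromosome 12, 86056745 to 86079041, minus strand), the most abundant of the 10 genes, had 37.4, 46.0 and 41.0 CPM at 3 months, 57.6, 60.3 and 61.8 CPM at 13 months, and 26.9, 60.1 and 73.4 CPM at 21 months. The 13-month libraries lay wholly above those at 3 months, while the 21-month libraries spanned both ages, lowest in the replicate with prostate transcripts. Tgfb3 averaged 59.9 ± 2.12 CPM at 13 months against 41.5 ± 4.29 CPM at 3 months, a log2 fold change of 0.53 (95% interval -0.12 to 1.18), with an adjusted p of 0.761 in edgeR's quasi-likelihood test. Fitted on only those 6 libraries, the same difference had an adjusted p of 0.0272, and with replicate 3 as the only 21-month library in the fit, 0.0320. Over the full span, 21 against 3 months, the log2 fold change was 0.37 ± 0.29 (SE; adjusted p = 0.457), but 0.69 (adjusted p = 0.0301) without 21-month replicate 1. With replicate 3 as the only 21-month library it was 0.83 (adjusted p = 0.0391), a value of 1 library whose spread is borrowed from the other ages. The Tgfb3 locus overlaps Ttll5, which had 3631 counts in all 9 libraries together, on the opposite strand without shared exon bases. It shares 257 exon bases with Gm48008 and 163 with Gm37804, which had 16 and 2 counts in all 9 libraries together. Fst, Tgfb2 and Bmp4 likewise share 115, 124 and 89 exon bases with opposite-strand genes that had 3, 5 and 0 counts in all. The strand setting of the counting is not given in the sources used here.

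As a share of the summed per-length level of the 3 TGF-beta genes, Tgfb3 made up 88.5, 90.0 and 88.5% in the 3-month libraries, 91.8, 91.3 and 90.5% in the 13-month libraries, and 72.1, 86.3 and 92.3% in the 21-month libraries. Such a share is formed within a library and does not depend on how libraries are scaled. It averaged 91.2 ± 0.66% in the 13-month libraries and 89.0 ± 0.86% at 3 months without overlap, with an exact two-sided permutation p of 0.1. That is the smallest p possible with 3 libraries on each side, and it was 0.4 when adjusted over the 12 tests of this kind. At 21 against 3 months the difference was -5.45 percentage points (exact permutation p = 0.7), and 0.28 percentage points without 21-month replicate 1.

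The activin subunits were expressed at low levels. Inhbb (ENSMUSG00000037035, GRCm38 chromosome 1, 119415465 to 119422248, minus strand), the beta B subunit, had 1.32, 1.92 and 2.41 CPM at 3 months, 1.95, 2.24 and 3.27 CPM at 13 months, and 3.60, 6.67 and 5.04 CPM at 21 months, from 23 to 185 counts. Every 21-month library exceeded every younger one. Inhbb averaged 5.10 ± 1.53 CPM at 21 months against 1.88 ± 0.55 CPM at 3 months, a log2 fold change of 1.44 ± 0.32 (SE; edgeR adjusted p = 0.0545). It was called in 6 of 18 alternative fits. Among them were DESeq2 (adjusted p = 0.00228), library totals (0.00898) and the fits without 21-month replicate 1 (0.0304) or 3 (0.0338). Library totals called 35.4% of all genes. The fit without replicate 3, which keeps only replicates 1 and 2 at 21 months, called 2349 of 16751. Over the 18 fits the log2 fold change ran from 1.20 to 2.02. With replicate 3 as the only 21-month library it was 1.43, adjusted p = 0.147.

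Inhba (ENSMUSG00000041324, GRCm38 chromosome 13, 16011851 to 16031621, plus strand), the beta A subunit that forms activin A, had 1.497, 1.56 and 0.759 CPM at 3 months, 0.650, 1.93 and 1.39 CPM at 13 months, and 1.11, 3.93 and 3.13 CPM at 21 months. The ages overlapped, since 21-month replicate 1 lay among the younger libraries. Its log2 fold change of 21 over 3 months was 1.09 ± 0.52 (SE; edgeR adjusted p = 0.231), from 11 to 109 counts over the 9 libraries. With replicate 3 as the only 21-month library it was 1.29, adjusted p = 0.378. Both subunits were highest in 21-month replicate 2, the library with the largest fat and nerve sums. That library also had the largest sums of the fibroblast list (717 CPM, against 197 to 403 CPM in the other 8 libraries), the endothelial list (101.9 CPM, against 43.6 to 57.2), the macrophage list (234.9 CPM, against 63.1 to 133) and the smooth muscle list (5557 CPM, against 2600 to 5289). The part of these transcripts in the subunits' levels was not tested. The longest identical stretch between the coding sequences of any pair of the 10 genes was 18 bases, shared by Inhba and Inhbb: gtggaggagtgtggctgc. Of the summed per-length level of both subunits, Inhbb made up 57.1, 64.8 and 82.7% in the 3-month libraries, 81.8, 63.6 and 78.0% in the 13-month libraries, and 82.9, 71.8 and 70.7% in the 21-month libraries. No age stood apart in this share.

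Fst (ENSMUSG00000021765, GRCm38 chromosome 13, 114452290 to 114458951, minus strand), whose secreted product binds activins, was the gene of the set that rose in the test, at 21 against 3 months. It had 3.57, 4.68 and 3.86 CPM at 3 months, 6.21, 9.49 and 12.4 CPM at 13 months, and 7.87, 10.8 and 10.7 CPM at 21 months. All 6 libraries of the older ages lay above the 3-month libraries, and the 13- and 21-month libraries overlapped. Fst averaged 9.77 ± 1.65 CPM at 21 months against 4.04 ± 0.58 CPM at 3 months (SD, n = 3 each), a 2.42-fold difference (log2 1.28, 95% interval 0.70 to 1.85) with an adjusted p of 0.0428 in edgeR's quasi-likelihood test. At 13 against 3 months the size was much the same, 9.35 ± 3.08 CPM at 13 months and 4.04 ± 0.58 CPM at 3 months, log2 1.22 (0.64 to 1.79), with an adjusted p of 0.107. At 21 against 13 months the log2 fold change was 0.06 ± 0.24 (SE; adjusted p = 0.929).

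The Fst call at 21 against 3 months was near the threshold. It held in 10 of 18 alternative fits, with a log2 fold change of 1.18 to 1.85 in all of them and adjusted p from 6.59e-04 to 0.217. It was lost with limma-voom (0.0741) and with at least 10 counts required in all 9 libraries (0.0584). Leaving out 3-month replicate 1 (0.217), 2 (0.144) or 3 (0.152) ended it. Those fits called 2, 4 and 0 of all genes, against 325 in the main fit. Leaving out 13-month replicate 2 (0.0745) or 21-month replicate 2 (0.0977) also ended the Fst call. With replicate 3 as the only 21-month library the log2 fold change was 1.41, adjusted p = 0.112. The 13-month difference, in turn, was called by DESeq2 (0.00332), by the fit on only the 6 libraries compared (0.0433) and with 21-month replicate 3 alone in the fit (0.0431).

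**Figure D3:**
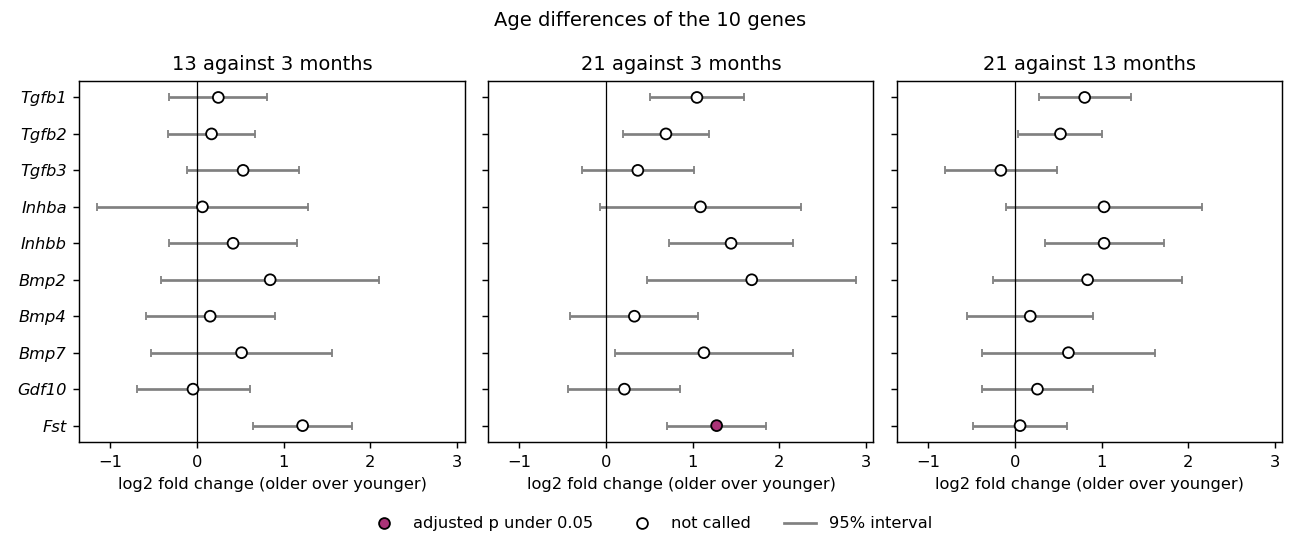
Log2 fold change of the 10 genes, older over younger age, with 95% intervals, in 3 panels for the 3 pairs of ages; filled points have an edgeR adjusted p under 0.05. Fst at 21 against 3 months (1.28) is the filled point, and all 10 points of that panel lie right of 0.

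The balance of Fst to the activin subunits was highest at 13 months. Per length, Fst over the sum of Inhba and Inhbb was 1.43, 1.47 and 1.23 in the 3-month libraries, 2.41, 2.49 and 2.73 in the 13-month libraries, and 1.68, 1.08 and 1.39 in the 21-month libraries. The 13-month libraries lay above all 6 others, and the 3- and 21-month libraries overlapped. The ratio averaged 2.55 ± 0.17 at 13 months against 1.37 ± 0.13 at 3 months, a difference of 1.17, and 1.38 ± 0.30 at 21 months against 2.55 ± 0.17 at 13 months, a difference of -1.17. Each gave an exact two-sided permutation p of 0.1, the smallest possible here, and 0.4 adjusted over the 12 tests. The difference between 21 and 3 months was 0.01 (exact permutation p = 1). Leaving out each library in turn left the first difference between 1.08 and 1.24 and the second between -1.32 and -1.01. These ratios were chosen after the values of the single genes had been seen.

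**Figure D4:**
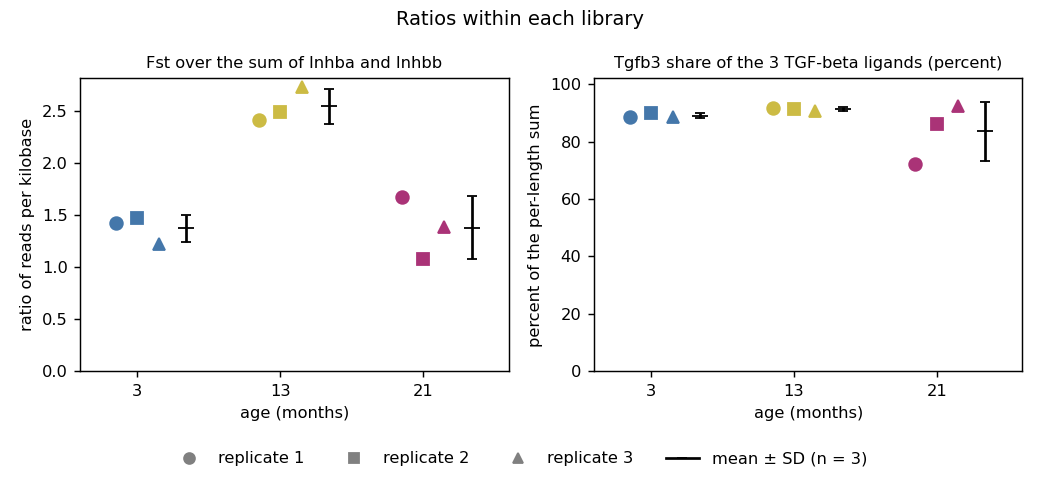
Ratio of Fst to the sum of Inhba and Inhbb (left) and the share of Tgfb3 among the 3 TGF-beta genes in percent (right), both per transcript length, for each library by age in months, with the mean and SD of 3. The 13-month ratios, 2.41 to 2.73, stand above those of both other ages, and the lowest Tgfb3 share, 72.1%, is that of 21-month replicate 1.

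Among the BMPs, Bmp2 (ENSMUSG00000027358, GRCm38 chromosome 2, 133552159 to 133562885, plus strand), an osteogenic BMP, was the scarcest per length. It had 0.173, 0.922 and 0.759 CPM at 3 months, 0.414, 1.41 and 1.39 CPM at 13 months, and 2.01, 1.87 and 1.95 CPM at 21 months. The 21-month libraries were close together and above all others, while 3 and 13 months overlapped. The lowest value rests on 3 counts (95% Poisson interval 0.619 to 8.77, for counting error only) and the highest on 54. Between 21 and 3 months the log2 fold change was 1.68 ± 0.54 (SE; edgeR adjusted p = 0.107). DESeq2, which called 9.35% of all genes, and library totals, which called 35.4%, both called Bmp2. With replicate 3 as the only 21-month library the log2 fold change was 1.70.

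Bmp4 (ENSMUSG00000021835, GRCm38 chromosome 14, 46383520 to 46390669, minus strand), the most abundant BMP of the set per length, had 4.90, 7.02 and 6.55 CPM at 3 months, 5.68, 5.32 and 9.40 CPM at 13 months, and 4.31, 9.26 and 9.58 CPM at 21 months. All ages overlapped. Between 21 and 3 months the log2 fold change was 0.33 ± 0.33 (SE; edgeR adjusted p = 0.565), and with replicate 3 as the only 21-month library it was 0.65, adjusted p = 0.517.

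Bmp7 (ENSMUSG00000008999, GRCm38 chromosome 2, 172868012 to 172940321, minus strand), which restrains ductal branching in the mouse prostate, had 5.01, 7.59 and 4.83 CPM at 3 months, 10.1, 7.30 and 7.52 CPM at 13 months, and 23.9, 6.23 and 7.90 CPM at 21 months. Its highest value, from 643 counts, was that of the library with 16246 CPM of prostate transcripts, and the other 21-month libraries lay among the younger ones. Between 21 and 3 months the log2 fold change was 1.13 ± 0.46 (SE; edgeR adjusted p = 0.172), against 0.45 (adjusted p = 0.634) with replicate 3 as the only 21-month library. The same library was lowest in the Bmp4 share of the summed per-length level of Bmp2, Bmp4 and Bmp7, which was 62.7, 59.3 and 67.3% in the 3-month libraries, 49.1, 51.7 and 64.9% in the 13-month libraries, and 22.8, 66.5 and 62.9% in the 21-month libraries. That share differed at 21 against 3 months by -12.4 percentage points (exact permutation p = 0.7), and by 1.58 without 21-month replicate 1.

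Gdf10 (ENSMUSG00000021943, GRCm38 chromosome 14, 33923587 to 33937983, plus strand), also called BMP3b, had 11.1, 10.2 and 7.38 CPM at 3 months, 6.80, 11.6 and 9.36 CPM at 13 months, and 8.39, 16.0 and 8.85 CPM at 21 months. The ages overlapped, and the single high value was that of 21-month replicate 2. Its log2 fold change was 0.21 ± 0.29 (SE; edgeR adjusted p = 0.681) at 21 against 3 months, and -0.15 without that library.

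Around these ligands, 3 genes of the wider pathway passed the test. Lists of other ligands, receptors, SMADs, secreted antagonists, latency and activation proteins, and TGF-beta and BMP target genes were examined; Bambi, Ltbp2, Skil, Smad6, Smad7 and Smad9 stand in more than 1. Of 16 tested receptors and co-receptors (18 listed), 0 were called by edgeR in any comparison, with a median log2 fold change of 0.40 at 21 against 3 months. There 4 had an unadjusted p under 0.05 (24.4% of all genes did), and DESeq2 called 2 (9.35% of all genes) and limma-voom 0 (0.958%), and the same shares stand behind the counts of the other lists. The type I receptors Bmpr1a and Tgfbr1, the most abundant of them per length, had 104.5 ± 8.25 and 54.4 ± 2.57 CPM at 21 months, against 115 ± 8.08 and 50.9 ± 1.08 CPM at 3 months. Of 12 SMADs and corepressors, 0 were called by edgeR, 3 had an unadjusted p under 0.05 and DESeq2 called 1 and limma-voom 0 at 21 against 3 months, with a median of 0.10. Smad4, the shared partner of both branches, and Smurf2, a ubiquitin ligase that acts on SMADs and receptors, had 57.6 ± 6.28 and 50.2 ± 4.18 CPM at 21 months, against 60.5 ± 1.66 and 47.6 ± 2.08 CPM at 3 months. Of 12 tested antagonists (18 listed), 0 were called by edgeR, 5 had an unadjusted p under 0.05 and DESeq2 called 2 and limma-voom 0 at 21 against 3 months, with a median of 0.45. The most abundant of these per length, the BMP binders Nbl1 and Twsg1, had 33.7 ± 10.7 and 48.1 ± 8.26 CPM at 21 months, against 23.2 ± 6.13 and 62.9 ± 4.75 CPM at 3 months.

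Among 15 latency and activation genes, 13 had a positive log2 fold change at 21 against 3 months, with a median of 0.52. Of all genes, 50.7% were positive. Fibroblast and macrophage marker sums were largest in 21-month replicate 2 (717 and 234.9 CPM). The part of such cells in this list's lean was not tested. Of these 15, 1 was called by edgeR (2.02% of all genes), 8 had an unadjusted p under 0.05, DESeq2 called 4 and limma-voom 1. The gene called by edgeR, Thbs1, encodes thrombospondin 1, a matrix protein that can activate latent TGF-beta. It had 8.35, 13.1 and 12.3 CPM at 3 months, 10.6, 10.6 and 15.04 CPM at 13 months, and 52.6, 55.2 and 48.1 CPM at 21 months. The 3 libraries at 21 months agreed closely and lay far above the others. The log2 fold change was 2.21 ± 0.19 (SE; edgeR adjusted p = 0.00557) against 3 months and 2.10 ± 0.19 (adjusted p = 0.0159) against 13 months, where Thbs1 was the single gene called. The call against 3 months held in 17 of 18 alternative fits, of which the one with replicate 3 as the only 21-month library rests on 1 library, and was lost without 3-month replicate 3 (adjusted p = 0.0585). Of the most abundant members per length, Itgb1, an integrin subunit, and Ltbp4, which binds latent TGF-beta in the matrix, had 232 ± 23.0 and 34.7 ± 14.2 CPM at 13 months, against 245 ± 11.8 and 29.0 ± 5.66 CPM at 3 months. The Thbs1 call against 13 months held in 12 of 18, with a largest adjusted p of 0.139. It was lost without 3-month replicate 3, 13-month replicate 1 or 2, or 21-month replicate 2, with only the 6 libraries compared, and with replicate 3 as the only 21-month library.

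Of 18 TGF-beta target genes, all tested, 16 had a positive log2 fold change at 21 against 3 months, with a median of 0.58. The target list shares genes with the marker lists: Col1a1 and Col1a2 also stand in the fibroblast list, and Acta2 and Tagln in the smooth muscle list. Both of those marker sums were largest in 21-month replicate 2 (717 and 5557 CPM), and the part of such cells in the target list's lean was not tested. Of these 18, 1 was called by edgeR, higher, 10 had an unadjusted p under 0.05, DESeq2 called 8 and limma-voom 0. The gene called by edgeR, Cdkn1a, which encodes the cell cycle inhibitor p21, had 3.45, 7.57 and 2.81 CPM at 21 months, against 1.32, 0.639 and 1.45 CPM at 3 months. All 3 libraries at 21 months lay above those at 3 months, highest in the library with the largest fat sum. Its log2 fold change was 2.01 ± 0.43 (SE; edgeR adjusted p = 0.0497). Cdkn1a was called in 6 of 17 alternative fits, with adjusted p up to 0.241. It was not called with limma-voom (0.0870), with only the 6 libraries compared (0.0999), with the replicate block (0.0679), when any single 3-month or 13-month library or 21-month replicate 2 was left out, or with replicate 3 as the only 21-month library. The most abundant targets per length, the smooth muscle genes Acta2 and Tagln, had 814 ± 248 and 548 ± 184 CPM at 21 months, against 692 ± 95.1 and 495 ± 100.1 CPM at 3 months. Of 11 tested BMP target genes (12 listed), 0 were called by edgeR, 2 had an unadjusted p under 0.05 and DESeq2 called 1 and limma-voom 0, with a median of 0.31. Id1 and Id3, immediate targets of BMP signalling, had 33.9 ± 4.40 and 61.0 ± 9.83 CPM at 21 months, against 29.1 ± 4.82 and 64.5 ± 5.72 CPM at 3 months.

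**Figure D5:**
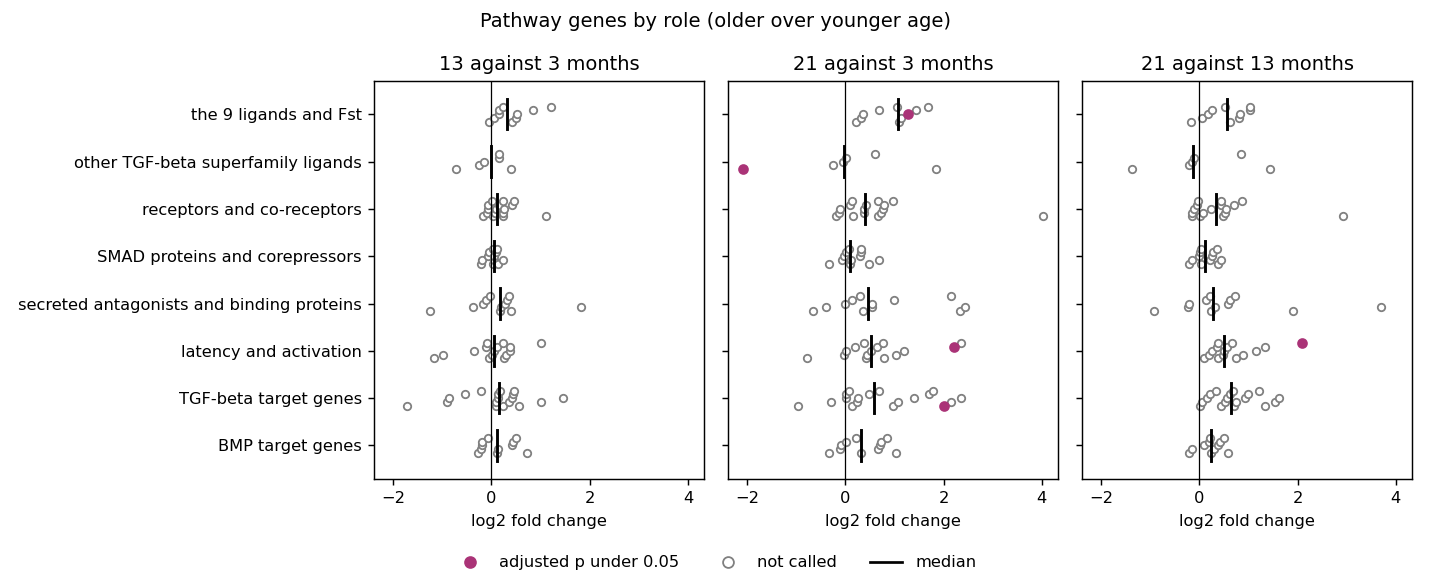
Log2 fold change, older over younger age, of the 10 genes and every tested gene of the pathway lists, grouped by role, with the median of each list, in 3 panels for the 3 pairs of ages; filled points have an edgeR adjusted p under 0.05. At 21 against 3 months the filled points are Fst, Thbs1 and Cdkn1a on the higher side and Bmp15 on the lower side, and at 21 against 13 months Thbs1.

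Of 24 other ligands of the superfamily, 6 passed the count filter and were tested. At 21 against 3 months edgeR called 1 of them, which fell, DESeq2 called 2 and limma-voom 1. Bmp15, known as an oocyte growth factor, had 9.10, 8.09 and 7.11 CPM at 3 months, 4.91, 5.95 and 4.03 CPM at 13 months, and 1.19, 1.30 and 3.36 CPM at 21 months. The 3 ages did not overlap, with the 3-month libraries highest. Its log2 fold change at 21 against 3 months was -2.07 ± 0.37 (SE; edgeR adjusted p = 0.0357), from 32 to 158 counts per library. It was called in 8 of 18 alternative fits and was -1.27 (adjusted p = 0.107) with replicate 3 as the only 21-month library. Leaving out 21-month replicate 2, or any single library at 3 or 13 months, also ended the call, with adjusted p up to 0.179. Gdf7, which in mice is needed for growth and branching of the seminal vesicle, had the highest level of these 6 per length, 12.4 RPKM, close to that of Tgfb3. It had 7.43, 23.5 and 20.1 CPM at 21 months, against 15.4, 19.2 and 16.1 CPM at 3 months, with a log2 fold change of 0.01 ± 0.39 (SE; edgeR adjusted p = 0.994).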

How the data were processed

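Total RNA of mouse seminal vesicle was extracted with TRIzol and sequenced in a long noncoding RNA protocol, per the labels. The authors deposited unnormalised counts of reads for each Ensembl gene, obtained with HISAT2 and featureCounts on GRCm38 (mm10), per the submitters' processing notes; versions, annotation, strand setting and the treatment of multiply mapped reads are not given in the sources used here. Overlapping genes on opposite strands therefore cannot be told apart. All 9 columns were matched to samples by name. Symbols, coordinates and exon lengths came from GENCODE M21 by Ensembl identifier, with 53274 of 53379 matched and 0.00839% of counts in the others.

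Genes were filtered with filterByExpr of edgeR 4.0.16 in R 4.3.3 (minimum count 10, minimum total 15), leaving 16067 and setting aside 37312. TMM-scaled counts of all 9 libraries were fitted together with 1 coefficient per age (residual df 6, prior df 3.63, biological coefficient of variation 22.4%). Ages were compared by the edgeR quasi-likelihood test with Benjamini-Hochberg adjustment over all tested genes, and a gene was called at an adjusted p under 0.05. The SE was taken as the size of the log2 fold change over the root of its F statistic. For ratios within libraries an exact two-sided permutation test was used. The steps were tested on simulated counts.

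The 10 genes and the pathway and marker lists were chosen with earlier results of these data known. Within each comparison, the pathway genes to be named were the called members of a list or, where none was called, its 2 most abundant members per length. Acta2, Tagln and Gdf7 were named by this rule in the other comparisons and are given at 21 against 3 months outside it. Bmp3, Gdf15 and Nog were chosen after their values were seen. Alternatives were DESeq2 1.42.0, its size factors, limma-voom (limma 3.58.1), library totals, 2 other filters, only the 6 libraries compared, a replicate block, leaving out each library, and replicate 3 as the only 21-month library. The ratios within libraries were added after the values had been seen. A gene of the TGF-beta target list is not reported here and was left out of that list's counts.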

Additional observations from a re-analysis of the deposited data

How the results depend on the processing

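Over all alternatives, 480 values of the 10 genes kept direction and side of the threshold, 28 gained a call, 8 lost one and 21 changed sign. Among all genes at 13 against 3 months, 73 were called, against 211 with DESeq2, 33 with at least 10 counts in all libraries, 235 with only the 6 libraries compared and 229 with replicate 3 as the only 21-month library, and 1 to 150 when each library was left out. At 21 against 3 months the count was 325, against 5695 with library totals, 1503 with DESeq2, 154 with limma-voom, 728 with a total count of at least 1, 69 with at least 10 counts everywhere, 112 with 6 libraries, 57 with replicate 3 as the only 21-month library and 0 to 2349 when leaving out each library (0 without 3-month replicate 3, 2349 without 21-month replicate 3). At 21 against 13 months it was 1, against 1240 with library totals, 428 with DESeq2, 3 with limma-voom, 5 with a total of at least 1, 0 with 6 libraries and 0 to 1244 when leaving out each library. Replicate numbers showed no clear pairing of the libraries. The correlation of deviations was -0.17 to 0.21 between same-numbered libraries and -0.28 to 0.22 between differently numbered ones. Such a check cannot exclude a pairing. With the replicate block 45 genes were called in the comparison of 13 with 3 months, 442 in that of 21 with 3 months and 3 in that of 21 with 13 months. Under the block, 2 of the 10 genes (Fst and Inhbb) were called at 21 against 3 months, and the log2 fold change of Inhba at 13 against 3 months was -0.072, and the Cdkn1a call at 21 against 3 months was lost (adjusted p = 0.0679). Of the 10 genes, at 13 against 3 months 0 were called with TMM and edgeR, 1 with DESeq2, 2 with 6 libraries and 2 with replicate 3 as the only 21-month library. At 21 against 3 months the 1 called became 9 with library totals, 4 with DESeq2, 0 with limma-voom, 2 with a total of at least 1, 0 with at least 10 counts everywhere and 0 to 4 when leaving out each library. At 21 against 13 months the 0 called became 2 with library totals (Inhbb and Tgfb1) and 0 to 2 when leaving out each library (Tgfb1 and Tgfb2 without 21-month replicate 3). Signs of small log2 fold changes turned. Library totals gave 0.040 for Gdf10 at 13 against 3 months and 0.28 for Tgfb3 at 21 against 13 months. Replicate 3 as the only 21-month library gave -0.11 for Gdf10 at 21 against 3 months and, at 21 against 13 months, -0.023 for Tgfb2, 0.30 for Tgfb3, -0.058 for Bmp7 and -0.062 for Gdf10. Leaving out each library gave, at 13 against 3 months, -0.30 to 0.37 for Inhba, -0.16 to 0.30 for Bmp4 and -0.24 to 0.13 for Gdf10. For Gdf10 it gave -0.15 to 0.38 at 21 against 3 months. At 21 against 13 months it gave -0.17 to 0.30 for Fst, -0.47 to 0.16 for Tgfb3, -0.23 to 0.94 for Bmp7, -0.11 to 0.45 for Gdf10 and -0.020 to 0.48 for Bmp4. The same ranges for ratios were -9.82 to 0.28 percentage points for the Tgfb3 share, -0.14 to 0.16 for Fst over activin subunits and -20.3 to 1.58 for the Bmp4 share at 21 against 3 months. At 21 against 13 months they were -12.4 to 9.45 for the Bmp4 share and -4.74 to 4.39 for the Inhbb share. Ranked by CPM without length, Gdf10 was at 2, Tgfb2 at 4, Bmp4 at 6, Inhba at 9 and Bmp2 at 10. The cause of these shifts was not tested. Depth limits Bmp2, Inhba and Tgfb1, whose values at 3 months rest on 3 to 28 counts per library.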

Other observations

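Among superfamily ligands with too few counts to be tested, Bmp3 had 0, 4 and 1 counts in the 3-month libraries, 0, 4 and 1 counts in the 13-month libraries, and 305, 172 and 5 counts in the 21-month libraries. The high values were those of the 2 libraries with prostate and fat transcripts, and replicate 3, without them, was near the younger libraries. Gdf15, a stress-induced ligand, had 212 counts over the 9 libraries, and the BMP antagonist Nog had 29.

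The genes whose log2 CPM followed each of the 10 most closely were taken from 11270 candidates over the 9 libraries, which share ages and the transcripts of other tissues. Tgfb1 was followed most closely by Fam107b (Pearson r = 0.98), Ikzf1 (0.98) and Vav1 (0.97), of which Ikzf1 and Vav1 are genes of blood cells. Inhbb was followed by Repin1 (0.99), Osmr, the oncostatin M receptor (0.97), and Rapgef5 (0.96), and Fst by Rfx3, Dyrk2 and Zfp275 (each 0.95). Because these were picked as the highest of 11270 values over only 9 libraries, a high r here is no test of a link. Among the 45 pairs of the 10 genes, r over the 9 libraries ran from -0.41 for Tgfb3 with Bmp7 to 0.83 for Inhbb with Bmp2. Over the 7 libraries without 21-month replicates 1 and 2, r was 0.74 for Tgfb3 with Bmp7 and 0.85 for Inhbb with Bmp2. Tgfb1 and Tgfb2 had r = 0.80 over 9 libraries and 0.02 over the 7 without 21-month replicates 1 and 2.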
